A study of Rattus norvegicus with 11 samples.

Results

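Type B intercalated cells were studied as the 2298 cells, of 114615 deposited cells, that the authors had named exactly IC-B. They came from all 11 animals and numbered 57 to 457 per animal. The joint name IC-A/B was kept apart, as were IC-A (2552 cells) and the principal cells, PC (1260 cells). The deposited table holds no gene values, so the name could not be checked against Slc26a4 and Slc4a9, which are the usual markers of the type, and no gene could be compared.

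Type B intercalated cells lie in the connecting tubule and the cortical collecting duct. They secrete bicarbonate into the urine and take up chloride through the apical exchanger pendrin, encoded by Slc26a4, and they carry the basolateral exchanger AE4, encoded by Slc4a9. Their neighbours of type A secrete acid, and the principal cells take up sodium and water under aldosterone and vasopressin. Angiotensin II and aldosterone are both known to raise pendrin, which makes the type B cell one of the targets of the system that enalapril blocks.

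The cells were from kidneys of male ZSF1 rats, all with the genotype label ZSF1-LeprfaLeprcp/Crl. Each of the 11 droplet-based single-cell RNA libraries was taken as 1 animal. There were 4 lean animals, 4 obese animals without the drug, and 3 obese animals (called treated below) whose drinking water held enalapril, an inhibitor of angiotensin-converting enzyme. The label for treatment reads none in the first 2 groups, although the protocol gives vehicle to the obese rats without the drug. Whether lean rats drank vehicle is not said. All were 12 weeks old on arrival and ate the same high energy chow. No dose and no age at collection could be read from the labels. Obese ZSF1 rats are used as a model of diabetic kidney disease with faulty leptin receptors. The series title names blockade of the renin-angiotensin-aldosterone system in that disease, and the comparisons ask how the type B cells stood in obese against lean kidneys and with enalapril.

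The animals differed in depth more than the groups did. Lean rat 2 stood apart, with 528 UMIs (unique molecules counted) in the median IC-B cell against 4835 to 7721.5 in the other lean rats, and results that turn on it are given without it. The sample codes in the labels have 6 different starts and none spans 2 groups. What a start stands for is not stated, so it cannot be told apart from the group. Of the 2298 IC-B barcodes, 0 were shared between libraries as IC-B, and 64 occurred in another library under any name. Over all cells, 1634 of 112971 distinct barcodes occurred in more than 1 library. Each of these stands for more than 1 cell, so the rates are not on the same base. How doublets were treated is not stated in the labels. Shares below are of cells that survived dissociation, and fewer cells in the kidney and fewer cells recovered cannot be told apart.

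IC-B cells made up a smaller share of the kidney cells from obese rats than from lean rats. They were 3.20%, 7.28%, 3.45% and 2.41% of all cells in lean rats 1 to 4. In obese rats 1 to 4 they were 1.02%, 1.26%, 2.11% and 0.526%. The 2 groups did not overlap, although the highest obese animal, rat 3, came close to the lowest lean animal, rat 4. The exact Clopper-Pearson 95% interval covers counting error only. It ran from 6.51% to 8.10% in lean rat 2 and from 2.05% to 2.82% in lean rat 4. In obese rat 3 it ran from 1.86% to 2.39%, and in obese rat 4 from 0.427% to 0.642%. Within each of these groups the spread between animals was thus far wider than counting error. The mean share was 4.09% ± 2.17 (SD, n = 4) in lean rats and 1.23% ± 0.664 (SD, n = 4) in obese rats.

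**Figure D1:**
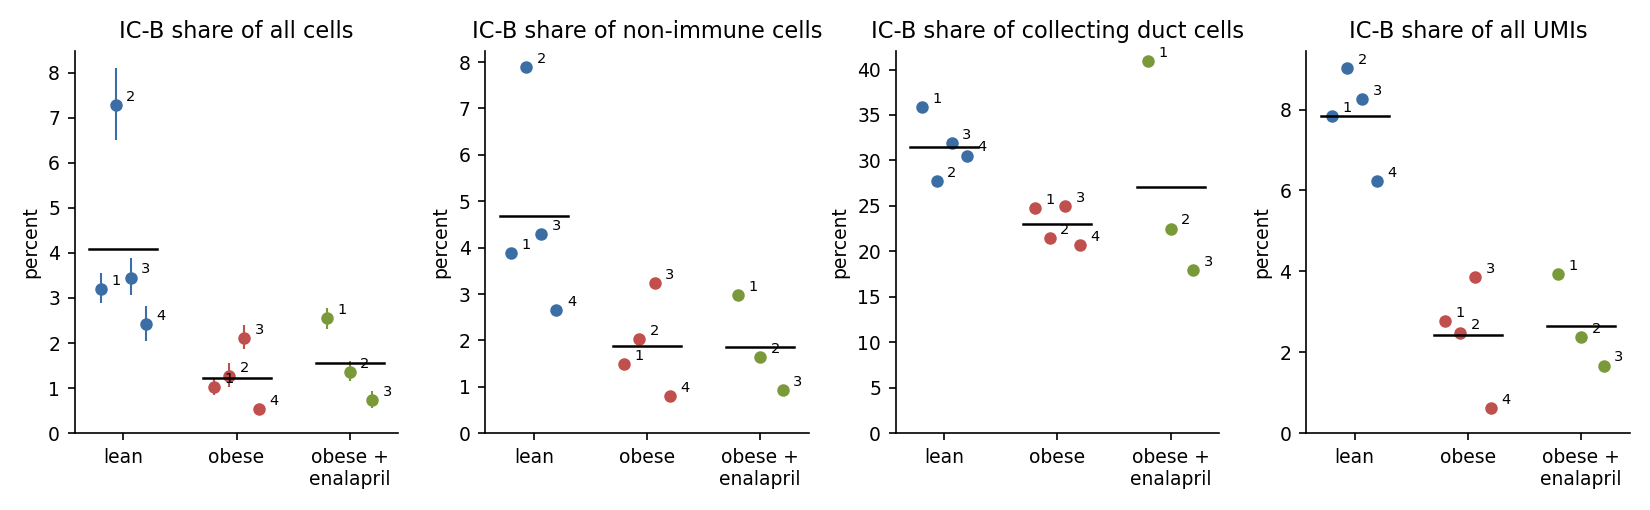
IC-B as a percent of all cells, of non-immune cells, of collecting duct cells and of all UMIs, from left to right, with 1 point per animal numbered by replicate, a black bar at the group mean and, in the first panel, exact 95% intervals of counting error. All 4 obese rats lie below all 4 lean rats in every panel but the second, where obese rat 3 (3.24%) lies above lean rat 4 (2.65%), and the treated rats spread from 17.9% to 40.9% of the collecting duct.

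In the fit of cell counts over all types (edgeR quasi-likelihood test, Benjamini-Hochberg adjusted), the IC-B share fell by 1.73 ± 0.51 (SE) on the log2 scale in obese rats, adjusted p = 0.0118. The same contrast called 12 of 20 types, or 60% of them, with 30% of types called lower. Against that background, which holds with all animals in the fit, a call for IC-B is not particular to it. The other 5 types called lower were IC-A, IC-A/B, DCT, DCT/CNT and the urothelial type. IC-A, the acid-secreting type, fell by 1.64 ± 0.53, IC-A/B by 1.18 ± 0.49, and the distal convoluted tubule, DCT, by 2.07 ± 0.43. The type spanning distal convoluted and connecting tubule, DCT/CNT, fell by 1.26 ± 0.45. The principal cells differed by -0.26 ± 0.42, which did not pass the test. This background turned on lean rat 2. Without that rat 7 of 20 types were called, 2 of them lower, and IC-B was still called.

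The 6 types called higher in obese rats were B cell, T cell, Mono, Mono/Macro, descending thin limb (DTL) and straight proximal tubule (PST). DTL rose by 1.62 ± 0.49 and PST by 1.28 ± 0.39 (log2, SE). The call for IC-B did not hold among non-immune cells. There the IC-B share was 3.89%, 7.89%, 4.29% and 2.65% in lean rats 1 to 4 and 1.49%, 2.03%, 3.24% and 0.795% in obese rats 1 to 4. Obese rat 3 then lay above lean rat 4, and the difference was -1.31 ± 0.51 (log2), adjusted p = 0.0824 in edgeR. Leaving out any 1 animal kept the call over all cells, with differences from -2.13 to -1.30. The last of these was without lean rat 2, with an adjusted p of 0.0116. The exact permutation test of the same shares on the logit scale gave a raw p of 0.0286, the lowest value possible with groups of 4, and an adjusted p of 0.0714, and that test called 0 of 20 types, with 8 at an unadjusted p under 0.05.

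With enalapril the share did not move in a way that the test could separate from the spread between animals. Treated rats 1 to 3 had IC-B shares of 2.55%, 1.36% and 0.731% of all cells, with a mean of 1.55% ± 0.922 (SD, n = 3). Rat 1 lay above all 4 obese rats, while rats 2 and 3 lay among them. The difference from obese rats was 0.34 ± 0.53 (log2), adjusted p = 0.670 in edgeR, and without treated rat 1 it was -0.23. In that contrast edgeR called 0% of the 20 types, with 2 types at an unadjusted p under 0.05, and DESeq2 called 1 type.

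Against lean rats the treated rats had the lower IC-B share, by 1.39 ± 0.55 on the log2 scale, but the adjusted p was 0.0846 in edgeR. That contrast called 15% of types in either direction and 10% lower, these being DCT and IC-A/B. The call depended on the tool and on the name, since DESeq2 gave an adjusted p of 0.0495 for the same size. DESeq2 called 5 of 20 types in that contrast, 3 of them lower, against 3 of 20 in edgeR. When IC-A/B cells were counted as IC-B, a choice made after the data were seen, edgeR gave -1.72 with an adjusted p of 0.0308. That fit called 3 of 19 types for treated against lean rats and 11 of 19 for obese against lean rats. The IC-B and IC-A/B cells together were also lower in obese than in lean rats, by 1.46 on the log2 scale with an adjusted p of 0.0150.

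Counted in UMIs, the IC-B share of the treated rats stood clear of the lean rats, which it did not when counted in cells. By cells, treated rat 1 (2.55%) lay above lean rat 4 (2.41%). IC-B cells held 7.83%, 9.03%, 8.25% and 6.23% of all UMIs in lean rats 1 to 4, 2.78%, 2.47%, 3.87% and 0.616% in obese rats 1 to 4, and 3.93%, 2.38% and 1.67% in treated rats 1 to 3. Every obese and every treated rat lay below every lean rat on this measure. The lean values were also closer together, at 7.84% ± 1.18 (SD, n = 4), than the shares of cells. Both differences from lean rats, of -5.40 and -5.18 percentage points, had an exact permutation p of 0.0286, the smallest the design allows, and an adjusted p of 0.107 over 15 tests of shares. This measure was chosen after the shares of cells were seen, and it depends on the UMIs of every other type. It was computed for IC-B only, so how many other types separate in this way is not known.

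Among collecting duct cells alone, taken as PC, IC-A, IC-B and IC-A/B, the IC-B share was lower in each obese rat than in any lean rat, but the fit did not call it. It was 35.9%, 27.8%, 31.9% and 30.5% in lean rats 1 to 4. In obese rats 1 to 4 it was 24.7%, 21.4%, 24.9% and 20.7%. The values within each group were close, at 31.5% ± 3.37 and 23.0% ± 2.19 (SD, n = 4 each). The edgeR difference with the duct cells as the total was -0.45 ± 0.23 (log2), adjusted p = 0.124, in a contrast that called 23.5% of 17 types. An exact permutation test of the percent itself gave p = 0.0286, the smallest possible, and an adjusted p of 0.107 over the same 15 tests. On the logit scale, the permutation test over all types had 4 of 17 at an unadjusted p under 0.05 and called 0. A low raw p was thus not particular to IC-B. With IC-A/B counted as IC-B the groups overlapped, at 52.0% to 59.3% of the duct in lean rats and 39.6% to 65.2% in obese rats, and the edgeR difference was -0.10, adjusted p = 0.633.

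Treated rat 1 set much of the spread behind that test. The treated rats had IC-B shares of the duct of 40.9%, 22.5% and 17.9%, so that rat 1 was the highest of all 11 animals and rat 3 the lowest. Without treated rat 1, edgeR called IC-B lower in obese rats, at -0.45 with an adjusted p of 0.0240, and in treated rats against lean rats, at -0.63 with an adjusted p of 0.0361. In that fit 5 of 17 types were called for obese against lean rats and 2 of 17 for treated against lean rats. With all 3 treated rats the differences were 0.26 ± 0.25 from obese rats (adjusted p = 0.480) and -0.19 ± 0.24 from lean rats (adjusted p = 0.627). These edgeR contrasts called 5.88% and 29.4% of types. The one type called against obese rats was IC-A/B, lower by 1.19 ± 0.30, adjusted p = 0.0481 in edgeR. No type was called there by limma, with the replicate block or among cells with at least 1000 UMIs. The same held in 9 of the 11 fits that left out 1 animal (all but those without obese rat 1 or 4). The permutation test also called 0 of 17 types, with 1 at an unadjusted p under 0.05. It could not have called a single type, since its smallest possible raw p is 0.0286 before adjustment over 17 types.

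The ratios to single neighbouring types set IC-B against 1 part of the distal nephron at a time. Beside each IC-A cell there were 1.38, 0.688, 0.83 and 1.03 IC-B cells in lean rats 1 to 4, and 0.750, 0.664, 0.871 and 0.980 in obese rats 1 to 4. The 2 groups overlapped in part, with lean rats 1 and 4 above every obese rat and obese rat 2 below every lean rat, and with a mean log2 difference of -0.23 and an exact permutation p of 0.429. The 2 main intercalated types were thus not separated by these counts, and the treated rats, at 1.40, 0.591 and 0.467, spanned a wider range than both groups.

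Against principal cells, the sodium- and water-absorbing cells of the same duct, the ratio did not overlap between lean and obese rats. There were 2.22, 5.05, 3.37 and 2.79 IC-B cells per PC in lean rats 1 to 4 and 0.902, 1.16, 1.47 and 1.52 in obese rats 1 to 4. The geometric means were 3.20 and 1.23, a log2 difference of -1.37. The exact permutation p was 0.0286, the lowest possible, with an adjusted value of 0.171 over 12 ratios and contrasts. Principal cells were themselves 10.5% ± 4.42 of the duct in lean rats and 19.1% ± 5.86 in obese rats (SD, n = 4 each). IC-A cells also fell against them, with means of 294.75 IC-A beside 89.25 PC in lean rats and 165.25 beside 107.5 in obese rats. The lower ratio was thus not particular to IC-B. Treated rats had 2.39, 0.852 and 0.576 IC-B cells per PC, with rat 1 inside the lean range and rats 2 and 3 below every obese animal. The treated against lean difference was -1.60, exact permutation p = 0.0571, adjusted p = 0.229.

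The ratio to DCT/CNT cells, which sit just upstream, fell into separate ranges in the same way but over a smaller span. It was 1.23, 0.960, 1.07 and 1.06 in lean rats 1 to 4, near 1 IC-B cell per DCT/CNT cell in each. In obese rats 1 to 4 it was 0.536, 0.832, 0.921 and 0.638. The log2 difference of the means was -0.59, exact permutation p = 0.0286 and adjusted p = 0.171. Treated rats 1 to 3 had 1.35, 0.488 and 0.289, the highest value and the 2 lowest of all 11 animals.

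The ratio to IC-A/B, the cells given the joint name, was the only one of the 4 with a higher geometric mean in treated than in obese rats. It was 1.63, 1.05, 1.58 and 1.06 in lean rats 1 to 4, 1.66, 0.774, 0.847 and 0.466 in obese rats 1 to 4, and 3.20, 1.73 and 1.43 in treated rats 1 to 3. Treated rats 1 and 2 lay above every obese and every lean animal. The difference from obese rats was 1.24 (log2), exact permutation p = 0.0857 and adjusted p = 0.257, and none of the 12 ratio tests passed after adjustment. IC-A/B cells were 12.6% to 13.0% of the duct in the 3 treated rats, so the 3 animals that differed most in IC-B agreed closely in this type.

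**Figure D2:**
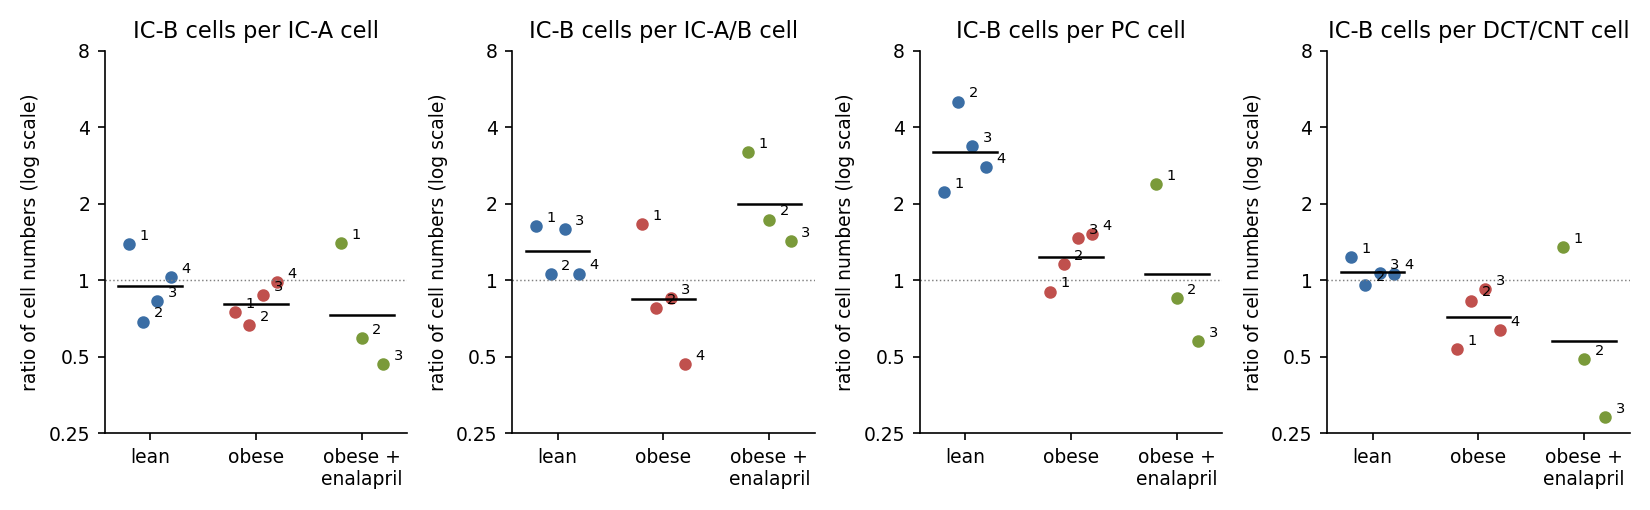
IC-B cells per cell of IC-A, IC-A/B, PC and DCT/CNT, from left to right, on a log axis, with 1 point per animal numbered by replicate, a black bar at the geometric mean of the group and a dotted line at a ratio of 1. The ratio to PC lies between 2.22 and 5.05 in lean rats and between 0.902 and 1.52 in obese rats, while the ratio to IC-A overlaps.

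In most animals IC-B cells were among the types with the most UMIs and genes per cell. They carried 270 to 14153 UMIs and 183 to 2929 genes each. Their median UMI count ranked highest of all types in 4 of the 11 animals and in the top 3 in 7, and their median number of genes ranked in the top 3 in 10. In obese rat 4, by contrast, IC-B ranked 12th of 19 types for UMIs and 11th for genes. No deposited cell had over 2971 genes, so the deepest IC-B cells came close to the upper end of the table. Cells with at least 2500 genes were 34.2% and 39.1% of the IC-B cells of lean rats 3 and 4 and 37.3% of those of obese rat 3, and ran from 0% (lean rat 2 and treated rat 1) to 21.8% in the other 8 animals.

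Across groups, the depth of an IC-B cell followed the animal and no group difference was found. The median IC-B cell held 4835, 528, 7413.5 and 7721.5 UMIs in lean rats 1 to 4, 7029, 4851, 7254.5 and 2337 in obese rats 1 to 4, and 2171, 6129 and 7558 in treated rats 1 to 3. Each group had its own shallow animal, and the ranges overlapped. Obese rats differed from lean rats by 0.50 ± 0.76 (log2), limma adjusted p = 0.523, and by -0.41 without lean rat 2, so that 1 animal set the sign. Treated rats differed from obese rats by -0.08 ± 0.82 (adjusted p = 0.927) and from lean rats by 0.42 ± 0.82 (adjusted p = 0.707). Genes per cell gave 0.36 ± 0.57, -0.09 ± 0.62 and 0.26 ± 0.62 for the same contrasts, with limma adjusted p-values of 0.574, 0.940 and 0.873. For UMIs and genes limma called 0% of 18 types in each contrast, with 2, 0 and 1 types at an unadjusted p under 0.05 for either measure. Without lean rat 2, 1 type, not IC-B, was called for UMIs in obese against lean rats.

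Thinning cells to 1 depth needs gene counts, so genes were compared among IC-B cells with 1000 to under 2000 UMIs. Medians over animals with at least 10 such cells averaged 628.0 genes in 3 lean rats, 672.7 in 3 obese rats and 710.5 in 2 treated rats. The differences of 44.7, 37.8 and 82.5 genes for obese against lean, treated against obese and treated against lean had exact permutation p-values of 0.2, 0.5 and 0.3, where the smallest possible was 0.1. At this number of animals no difference could have passed. The range first planned, 500 to under 1000 UMIs, held 10 IC-B cells in only 1 animal of each group.

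**Figure D3:**
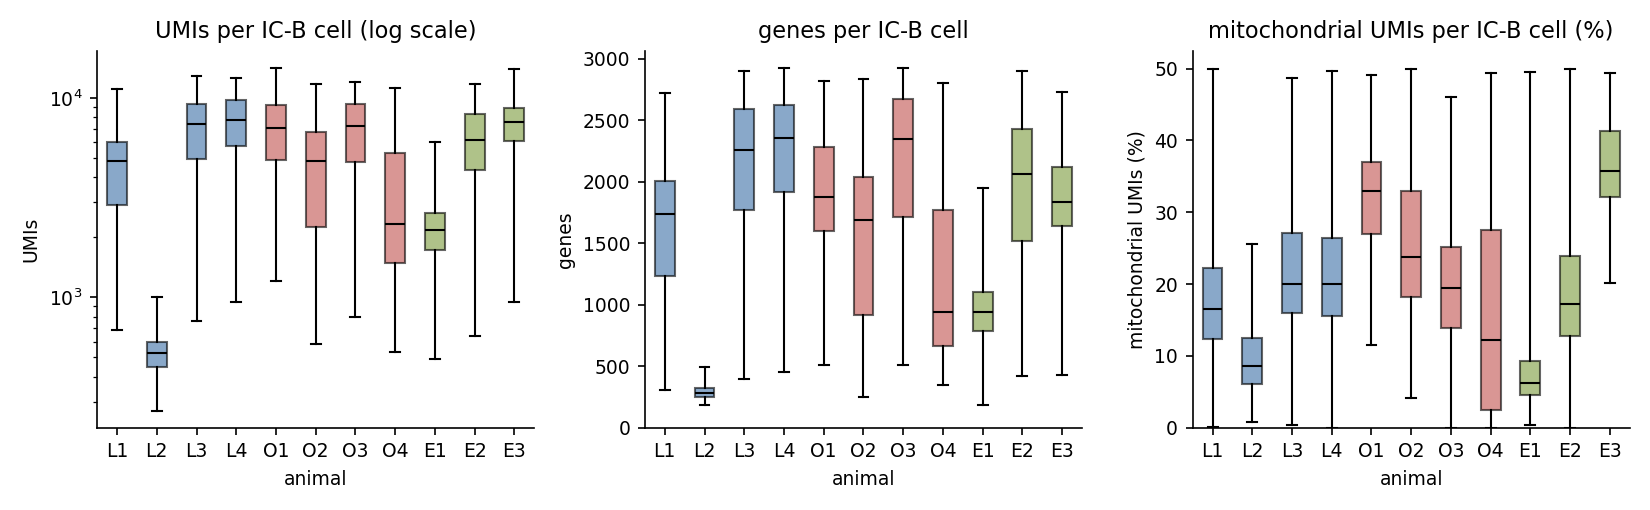
UMIs (log axis), genes and mitochondrial percent per IC-B cell in each animal, where L, O and E stand for lean, obese and obese with enalapril and the number is the replicate. Boxes span the quartiles with a line at the median and whiskers reach the lowest and highest cell. Lean rat 2 is lowest for UMIs and genes, and treated rats 1 and 3 hold the lowest and highest mitochondrial medians, 6.27% and 35.8%.

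The share of UMIs from mitochondrial genes in IC-B cells also varied more within groups than between them. Its median was 16.6%, 8.59%, 20.1% and 19.99% in lean rats 1 to 4, 33.0%, 23.8%, 19.5% and 12.2% in obese rats 1 to 4, and 6.27%, 17.3% and 35.8% in treated rats 1 to 3. The treated group alone held the lowest and the highest of the 11 medians. The differences were 5.80 ± 6.08 percentage points for obese against lean, -2.34 ± 6.57 for treated against obese and 3.46 ± 6.57 for treated against lean, with limma adjusted p-values of 0.433, 0.728 and 0.880. Limma called 5.56%, 0% and 5.56% of 18 types in these contrasts, with 3, 1 and 2 types at an unadjusted p under 0.05. The call was DCT both times.

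The duct share and the mitochondrial share were at opposite extremes in 2 treated animals. Treated rat 1, with the highest IC-B share of the duct, had the lowest IC-B mitochondrial median, and 31.3% of its IC-B cells had under 5% mitochondrial UMIs. Treated rat 3, with the lowest duct share, had the highest mitochondrial median, and 31.6% of its IC-B cells had at least 40%. Among cells under 25% mitochondrial UMIs, the log2 difference in the ratio of IC-B to PC between treated and obese rats was 0.69, against -0.23 over all cells, and neither passed the exact permutation test after adjustment. The filter left 2 treated animals, since rat 3 no longer had enough cells, and without rat 3 the difference over all cells was 0.21. Within an animal, UMIs and mitochondrial percent of IC-B cells were only weakly related, with Spearman correlations across cells from -0.275 to 0.216 over the 11 animals, given as a description.

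Within each animal, IC-B cells carried more mitochondrial RNA than IC-A cells. The IC-B median exceeded the IC-A median in 11 of 11 animals, by 1.38 to 11.2 percentage points and by 4.77 ± 2.62 (SD, n = 11) on average. Both cell types are known for dense mitochondria, which drive their proton pumps. The exact sign-flip permutation test gave p = 0.000977, the smallest that 11 animals allow, and 0.0022 after adjustment over 9 comparisons. The UMI difference between these types was 0.14 ± 0.27 (log2, SD), with IC-B higher in 6 of 11 animals and an exact permutation adjusted p of 0.141. By group it was 0.37 in lean rats, with IC-B higher in 4 of 4, -0.04 in obese rats (1 of 4) and 0.07 in treated rats (1 of 3), and the difference between groups was not tested. Genes differed by 0.03 ± 0.15, adjusted p = 0.463. The mean mitochondrial difference was 4.44 points in lean, 4.23 in obese and 5.93 in treated rats.

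IC-A/B cells differed from IC-B cells far more than IC-A cells did, and the difference lay in depth as well. The median IC-A/B cell held 416 to 1298.5 UMIs across the animals, and IC-B exceeded it by 2.21 ± 0.86 (log2, SD) and in genes by 1.60 ± 0.62, in 11 of 11 animals each. IC-B also had the higher mitochondrial median in 11 of 11 animals, by 13.3 ± 6.14 points. Each of the 3 differences had an adjusted p of 0.0022 in the exact sign-flip permutation test. Principal cells came between, with IC-B higher by 0.64 ± 0.52 in UMIs (10 of 11 animals, exact permutation adjusted p = 0.0088) and by 0.45 ± 0.40 in genes (10 of 11, adjusted p = 0.0053). In obese rat 4 the median principal cell held 3315 UMIs against 2337 in IC-B. The mitochondrial median of IC-B was higher than that of PC in 7 of 11 animals, by 3.09 ± 6.27 points, exact permutation adjusted p = 0.164. All of these types were named from the same cells, so these values describe the classes as the authors drew them.

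**Figure D4:**
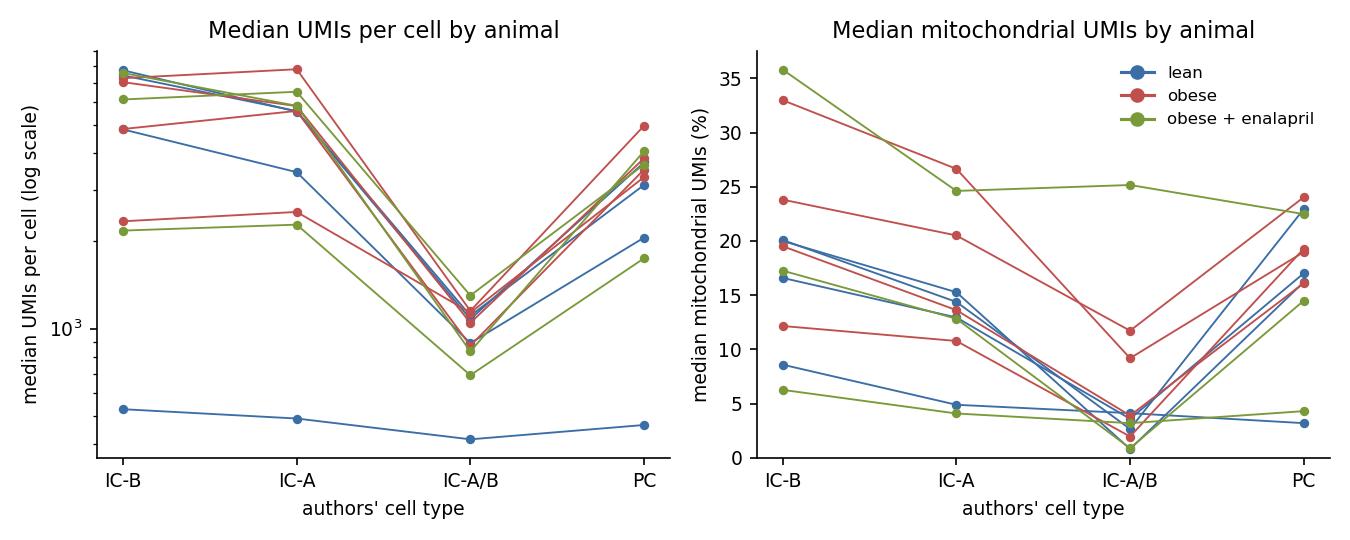
Median UMIs on a log axis (left) and median mitochondrial percent (right) of IC-B, IC-A, IC-A/B and PC cells, with 1 line per animal coloured by group. Every line drops from IC-B to IC-A in mitochondrial percent, and in UMIs every animal's IC-B point lies above its IC-A/B point.

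On the authors' two-dimensional map, IC-B formed a nearly closed island, as did IC-A. Of the 15 nearest cells to an IC-B cell, 98.2% carried the name IC-B as a mean over animals, from 95.9% in obese rat 4 to 99.6% in lean rat 2. IC-A/B made up 1.51% of these neighbours, PC 0.278% and IC-A 0.0027%, so that what border there was lay with the joint type. For IC-A cells, 99.0% of the 15 nearest cells were IC-A, and for IC-A/B cells 92.5% were IC-A/B. All 15 neighbours were IC-B for 2030 of the 2298 cells, or 88.3%, and 11 cells had under 50%. The median position of IC-A/B was nearest to that of IC-B, at 3.06 map units, before IC-A at 4.53 and DCT at 7.39. The map, like the names, was made by the authors from these cells, and its units have no scale, so these values are a description with no test.

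The authors' calls of cell cycle phase gave IC-B a high share of S and G2M, with no difference between groups. The share was 66.4%, 41.6%, 74.1% and 64.1% in lean rats 1 to 4, 72.1%, 58.4%, 70.1% and 68.0% in obese rats 1 to 4, and 62.8%, 64.1% and 73.7% in treated rats 1 to 3. Lean rat 2, the shallowest library, had the lowest value. The differences were 5.63 ± 6.11 points for obese against lean, -0.29 ± 6.60 for treated against obese and 5.34 ± 6.60 for treated against lean, with limma adjusted p-values of 0.503, 0.987 and 0.810. The first was -1.03 without lean rat 2.

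The scores behind those calls lay close to 0, and no cycling is read from them. The mean S score of IC-B cells was -0.000449 in lean, 0.000859 in obese and -0.000142 in treated rats, and the mean G2M score was -0.00661, -0.00445 and -0.00559. The smallest limma adjusted p of the 6 score contrasts for IC-B was 0.670. For phase share and scores with all animals, limma called 0% of 18 types in every contrast, with 0 to 6 types at an unadjusted p under 0.05. For the G2M score this turned on lean rat 2. Without that rat limma called 8 of 18 types higher in obese than in lean rats, and 1 higher in treated than in lean rats. The S score then had 1 type called in each of these contrasts, and the phase share 0. IC-B was not among the types called. IC-A cells, for comparison, had S or G2M shares from 34.8% to 64.2%, in animals that ranged from 41.6% to 74.1% in IC-B.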

How the data were processed

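Kidneys of 11 ZSF1 rats were profiled with 10x Genomics 3′ single-cell libraries, loaded at 10000 cells each per the labels' protocols. Seurat 4.3.0, Cell Ranger 7.0.1 and the rn6 build appear in the submitters' processing notes. No label describes how cells were filtered, clustered or named. UMIs and genes per cell are raw counts deposited by the authors, per the file headers. The mitochondrial percent, the S and G2M score and the map position of each cell are values the authors deposited, with 1 of 21 cell type names.

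Cells were assigned to animals by the sample codes in the labels, and 0 cells lacked an animal. The animal was the replicate. The labels number the animals without saying more, and whether libraries that share a code start came from separate animals is not stated. They were taken as separate animals. The p-values set the group differences against the spread between them. Cells of each type per animal were fitted over 3 groups with the robust quasi-likelihood F test of edgeR 4.0.16, with no abundance trend, with all cells, or the cells of the compartment, as the total, for types with a mean of at least 10 cells. Medians per type and animal (at least 20 cells) were fitted with limma 3.58.1, UMIs and genes as log2. Benjamini-Hochberg adjustment ran over all types within a contrast, with a threshold of 0.05. Single values used exact two-sided permutation tests. DESeq2 1.42.0 was an alternative, as were TMM factors, limma on logit shares, cell filters (at least 1000 UMIs, under 25% mitochondrial), a replicate block and leaving out each animal. The edgeR fit over all cells and limma were checked on simulated data, with the total of cells per animal held fixed. The exact tests and the fit within compartments were not. Computations ran in Python 3.11.15 (scipy 1.17.1, pandas 2.3.3) and R 4.3.3.

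The cell type and the compared types were chosen with earlier results of these data known. Types named with values are IC-B, IC-A, IC-A/B, PC, DCT, DCT/CNT, DTL and PST. Other types past the threshold where IC-B is set against all types are named without values or only counted. The share of UMIs, the counts with IC-A/B joined to IC-B, the mitochondrial and gene limits of single animals and the fit over cells with at least 1000 UMIs without lean rat 2 were chosen after seeing the data.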

Additional observations from a re-analysis of the deposited data

Results flagged for a closer look

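The IC-B shares, ratios, medians and scores of the lean and obese rats, 38 groups of values, were looked at for an animal whose gap to the nearest of its group, over the group's range, exceeded Dixon's 95% value for 4 animals, which chance gives in about 1 of 20. There were 5 such cases, all among the 8 groups of shares past a mitochondrial or gene limit. Those limits were chosen after the data were seen, so the chance rate does not apply to them and the values are a description. In lean rat 2, 14.6% of IC-B cells had under 5% mitochondrial UMIs and 61.7% had under 10%, the highest of the lean rats in each case. Its IC-B cells were also the shallowest, with a median of 528 UMIs, and the part of depth in these shares was not tested. In obese rat 4, 33.0% of IC-B cells had under 5%. Those 32 cells had a median of 1499 UMIs against 3625 in its other 65 IC-B cells, and IC-A/B made up 9.38% of their map neighbours against 1.33%. The neighbour difference was not particular to that rat, since in obese rat 3 it was 9.70% (11 cells) against 1.46%. Lean rats 1, 3 and 4 and treated rat 2 had the same direction, with 2 to 5 cells under 5% each. Lean rat 2, obese rat 2 and treated rat 1 had the opposite direction. In obese rat 3, 2.05% of IC-B cells had at least 40% mitochondrial UMIs, the lowest of the obese rats, and 37.3% had at least 2500 genes, the highest.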

How the results depend on the processing

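Across 49 results, 625 values were recomputed outside single groups. Of these, 571 kept direction and side of the threshold, 47 changed sign, 5 came to pass the threshold and 2 no longer passed it. The map share, which has no threshold, is counted among the 571 and moved from 98.17% to 98.16% with 30 neighbours. None of the values that changed sign had passed the threshold. Another 27 values, the within-animal differences in 1 group at a time, have too few animals to pass any test. Of these, 3 changed sign: IC-B minus IC-A in UMIs (-0.04, obese) and genes (-0.06, obese, and -0.02, treated).

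For obese against lean rats the IC-B share of all cells missed the threshold among non-immune cells (-1.31) and in the permutation test of logit shares (-1.81, adjusted p = 0.0714). Against obese rats the treated difference changed sign among non-immune cells (-0.018) and with IC-A/B counted as IC-B (-0.26; -0.37 within the duct). The treated against lean difference passed in DESeq2 (-1.39) and with IC-A/B counted as IC-B (-1.72). Among cells with at least 1000 UMIs, which leaves 1 IC-B cell in lean rat 2, UMIs changed sign (-0.28 obese and -0.47 treated against lean), as did genes (-0.31 and -0.46) and phase share (-0.78, -0.58 and, treated against obese, 0.21), and the mitochondrial difference from PC passed (4.02, adjusted p = 0.0452). Under 25% mitochondrial UMIs, with 2 treated animals left because rat 3 had too few cells, the treated against obese ratios were 0.51 to IC-A, 0.69 to PC and 0.50 to DCT/CNT, and the treated against lean ratio to IC-A was 0.013. Leaving out treated rat 3 without the filter gave 0.17, 0.21 and 0.18 for the first 3. The causes of these changes were not tested.

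Leaving out 1 animal changed signs or calls within these ranges. For treated against obese rats, the share of all cells ran from -0.23 to 0.74, the duct share from -0.18 to 0.47, UMIs from -0.43 to 0.47, genes from -0.36 to 0.26, mitochondrial percent from -10.4 to 4.41, phase share from -3.70 to 1.74, S score from -0.00247 to 0.000252, G2M score from -0.00336 to 0.000355, and the ratios to IC-A from -0.62 to 0.17, to PC from -0.82 to 0.21 and to DCT/CNT from -0.93 to 0.18. For treated against lean rats, the duct share ran from -0.63 to 0.014, UMIs from -0.49 to 0.97, genes from -0.46 to 0.61, mitochondrial percent from -4.55 to 10.2, phase share from -1.32 to 9.51, S score from -0.000571 to 0.00129 and G2M score from -0.0012 to 0.00226. For obese against lean rats, the duct share ran from -0.51 to -0.39, UMIs from -0.41 to 0.88, genes from -0.37 to 0.65 and phase share from -1.03 to 9.81. Where an arm kept 1 animal with a value, no test was made.

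Replicate numbers did not pair the animals: deviations of same-numbered animals correlated from -0.472 to 0.513. With the replicate number as a block, the obese against lean share of all cells was -1.74 (adjusted p = 0.0198) and the phase share, treated against obese, changed sign to 0.28. The block changed no other sign or call for IC-B, and over all types it raised the calls of treated against obese shares from 0 to 3 of 20 and lowered those of shares of the compartment from 1 to 0 of 17 (treated against obese) and from 5 to 0 (treated against lean). The last count ran from 0 to 7 over all alternatives. Genes at matched UMIs could be blocked for obese against lean rats only (64.0 genes), and a minimum of 20 cells gave no value for them.

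The number of animals and the shallow cells of lean rat 2 limit what can be seen: shares of 3 treated rats that differ this much leave wide intervals, and exact tests at 4 against 4 animals cannot give a raw p under 0.0286. The map and the type names rest on gene values that were not used here.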
